A study of Homo sapiens with 12 samples.

Results

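The 49 genes described here encode proteins that build, crosslink, bind or cut the extracellular matrix, together with the transcription factors, cadherins and intermediate filament used to mark the epithelial-mesenchymal transition (EMT). They were a named list of symbols, each matched to its Ensembl identifier among the 58302 genes of the count table. The count table held all 49, of which 47 passed the filter on low counts and *MMP3* and *MMP13* did not. HSC3 and CAL33 are established human cell lines of oral squamous cell carcinoma (OSCC), and the study treated them with rapamycin, an inhibitor of the kinase mTOR that induces autophagy, to ask how autophagy relates to N6-methyladenosine (m6A) in mRNA. RNA-seq was done on 4 libraries, 2 from cells given 100 nM rapamycin and 2 from control cells, and the labels give no treatment time for them. In each treatment the libraries are numbered 1 and 2. Methylated RNA immunoprecipitation (MeRIP-seq) was done on 8 libraries, 1 immunoprecipitated (IP) and 1 input library for each cell line with and without 100 nM rapamycin for 3 days, and gave 4 lists of m6A peaks.

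The RNA-seq libraries held 18492273 counts in rapamycin 1, 18763045 in rapamycin 2, 21653290 in control 1 and 23763098 in control 2. Their labels name HSC3 for both rapamycin libraries and CAL33 for both controls, whereas in MeRIP-seq number 1 is HSC3 and number 2 is CAL33 in both treatments. The counts grouped by number. Over 15826 genes, log2 CPM (counts per 1000000 counts) of same-numbered libraries had a correlation of 0.97 for number 1 and 0.96 for number 2, against 0.76 to 0.81 between differently numbered libraries. No RNA-seq library is therefore given a cell line here, and each is named by its treatment and number. If the RNA-seq labels hold, treatment and cell line coincide, and the differences given for rapamycin cannot be told apart from differences between the cell lines. The labels do not say whether libraries came from separate cultures. The main fit had treatment and number as terms. Its p-values measure the spread left among these 4 libraries after both terms, with variance shared across genes. They do not measure the spread between cultures.

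Each of 8 squamous epithelial markers had counts in some library, and their summed level was 611 CPM in rapamycin 1, 3289 in rapamycin 2, 786 in control 1 and 4740 in control 2. The most abundant was *KRT17*, a basal keratin, at 5.05 and 4.89 CPM in rapamycin 1 and control 1 and at 2119 and 1346 CPM in rapamycin 2 and control 2. *KRT14* had 0 counts in both number 1 libraries, which allows up to 0.158 CPM in rapamycin 1 and 0.139 in control 1 (3 counts, counting error only). Of 7 fibroblast markers, *COL1A2*, *COL3A1* and *DCN* had 0 counts in all 4 libraries and 2 others had at most 10 in each, while *PDGFRB*, the most abundant, had 281 and 224 counts in the number 1 libraries and 0 in both number 2 libraries. The summed fibroblast level was 17.5, 0.274, 13.9 and 0.127 CPM in rapamycin 1, rapamycin 2, control 1 and control 2. The endothelial cadherin gene *CDH5* had 13 and 19 counts in the number 1 libraries and 758 and 607 in the number 2 libraries, and all 3 leukocyte markers had at most 10 counts in each library. By number, *KRT14* had counts in number 2 only and passed the filter on low counts through it. Of the other 7 squamous markers, 5 were called lower in number 1 by edgeR's quasi-likelihood test (16.1% of all genes that did not pass through 1 number alone were), and *SFN* (adjusted p = 0.80) and *EPCAM* (adjusted p = 0.069) did not pass. With rapamycin, 3 squamous markers fell (as did 3.5% of all genes tested), the basal keratin genes *KRT5* and *KRT14* and the stress-induced keratin gene *KRT6A*. *KRT5* was at 6.10 CPM in rapamycin 1, 327 in rapamycin 2, 34.2 in control 1 and 1703 in control 2 (log2 fold change −2.43, adjusted p = 6.1e-06, edgeR's quasi-likelihood test). *KRT6A*, whose near-identical copies make its counts uncertain, was at 0.421, 5.38, 4.39 and 374 CPM in the same order (−5.46, adjusted p = 0.0037). *KRT14* was at 1.26 CPM in rapamycin 2 and 9.34 in control 2 (−2.85, adjusted p = 0.033). Marker levels thus moved both with the library number and with rapamycin, and their part in the results on either was not tested.

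The extracellular matrix of a squamous epithelium consists of a basement membrane, made chiefly of laminins and type IV collagen, and an underlying interstitial matrix of fibrillar collagens and fibronectin. Cells hold on to it through integrins, which are αβ heterodimers, and through hemidesmosomes, in which integrin α6β4 and collagen XVII bind laminin 332. Carcinoma cells cut and rebuild this matrix with metalloproteinases and the urokinase system, and in EMT they lose E-cadherin and gain vimentin, N-cadherin and fibronectin under the control of the ZEB, SNAIL and TWIST factors.

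With rapamycin, 3 of the 47 genes rose and 1 fell. *PLAU*, which encodes urokinase, the serine protease that activates plasminogen, rose 3.51-fold. *COL5A1*, the α1 chain of fibrillar collagen V, rose 2.49-fold, and *LAMB3*, the β3 chain of laminin 332, rose 2.30-fold. *SPARC*, a secreted collagen-binding glycoprotein, fell 2.28-fold. The other 43 genes did not pass edgeR's quasi-likelihood test with the library number as a block (Benjamini-Hochberg adjusted p at 0.05 over all 15826 genes). Over all genes tested, 4.65% were called higher and 3.5% lower, and 8.15% were called in either direction, against 8.51% of these 47. The share called was thus near that of all genes, and *KRT5*, *KRT6A* and *KRT14* fell in the same fit, as given above. The median log2 fold change was 0.10 for the 47 genes and 0.05 for all genes. In bulk RNA, a change in the number of cells of one kind cannot be told apart from a change in RNA per cell. Without the number as a block, the same test called 0 genes of 15826 (446 at an unadjusted p under 0.05), and DESeq2 with the block called 818, these 4 members among them.

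*PLAU* was at 2673 CPM in rapamycin 1, 597 in rapamycin 2, 560 in control 1 and 231 in control 2. Both rapamycin libraries were above both controls. The log2 fold change was 1.81 ± 0.28 (SE, adjusted p = 0.00061 by edgeR's quasi-likelihood test), with a log2 difference of 2.25 in the number 1 pair and 1.37 in the number 2 pair. *PLAUR*, the urokinase receptor, stood at 168, 41.2, 142 and 27.3 CPM in rapamycin 1, rapamycin 2, control 1 and control 2, and its log2 fold change of 0.42 ± 0.26 did not pass (adjusted p = 0.34). *SERPINE2*, an inhibitor of urokinase and thrombin, had a log2 difference of 0.01 in the number 1 pair and −0.87 in the number 2 pair (adjusted p = 0.40).

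*LAMB3* was at 3344 CPM in rapamycin 1, 970 in rapamycin 2, 1330 in control 1 and 460 in control 2. Within each number the rapamycin library was the higher one, while the treatments overlapped across numbers, since control 1 was above rapamycin 2. Its log2 fold change was 1.20 ± 0.27 (adjusted p = 0.0068, edgeR's quasi-likelihood test), and the pairs gave log2 differences of 1.33 and 1.08. In laminin 332 this chain is joined to α3, from *LAMA3*. *LAMA3* was at 798, 166, 922 and 221 CPM in rapamycin 1, rapamycin 2, control 1 and control 2, with a log2 fold change of −0.31 ± 0.26 (adjusted p = 0.49). *LAMA3* thus did not pass the test, and whether it differed from *LAMB3* was not tested.

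*COL5A1* was at 199 CPM in rapamycin 1, 3.18 in rapamycin 2, 97.8 in control 1 and 0.887 in control 2. The log2 fold change was 1.32 ± 0.30 (adjusted p = 0.0078, edgeR's quasi-likelihood test), with 1.02 in the number 1 pair and 1.82 in the number 2 pair. The number 2 value rested on 58 and 21 counts. *SPARC* was at 113 CPM in rapamycin 1, 0.274 in rapamycin 2, 239 in control 1 and 0.845 in control 2. It was lower with rapamycin in both pairs, by log2 differences of −1.09 and −1.52, and the fitted log2 fold change was −1.19 ± 0.32 (adjusted p = 0.021). In number 2 it had 5 and 20 counts, and a filter asking for 10 counts in every library left it out. For both genes, the treatments overlapped across numbers.

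**Figure D1:**
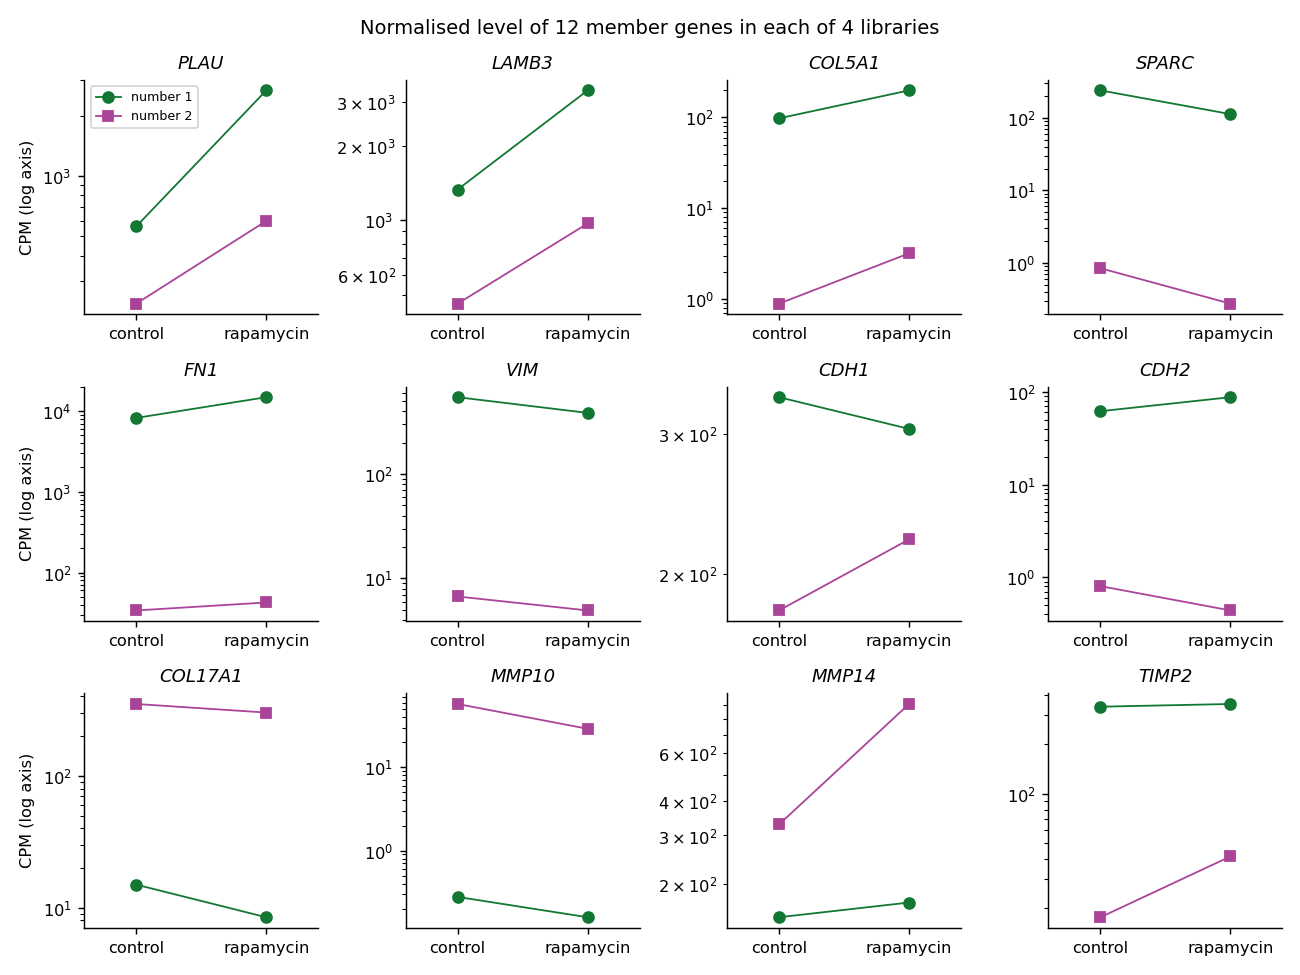
Level of 12 of the genes in each of the 4 RNA-seq libraries, as CPM on log axes that differ between panels, with a line from control to rapamycin for each library number and 1 point per library. PLAU, LAMB3 and COL5A1 go up and SPARC goes down in both numbers, while FN1, VIM, CDH2, COL17A1 and MMP10 are set apart by number.

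Among the rest of the matrix genes, *COL1A1*, which encodes the α1 chain of collagen I, was at 29.3 CPM in rapamycin 1, 28.4 in rapamycin 2, 22.0 in control 1 and 8.79 in control 2. Both rapamycin libraries were above both controls, but the log2 fold change of 1.04 ± 0.35 did not pass (adjusted p = 0.068, edgeR's quasi-likelihood test). The gene for its partner chain, *COL1A2*, had 0 counts in every library, as noted above. *FN1*, which encodes fibronectin, had log2 differences of 0.85 and 0.33 in the pairs (adjusted p = 0.19). *THBS1*, encoding the matricellular protein thrombospondin 1, was at 373 CPM in rapamycin 1, 125 in rapamycin 2, 617 in control 1 and 143 in control 2, with log2 differences of −0.73 and −0.20 (adjusted p = 0.28). It was thus the lower with rapamycin in each pair, while the treatments overlapped across numbers. *TNC*, encoding tenascin C, had nearly the same level in rapamycin 1 and control 1, at 360 and 358 CPM, and was at 4.61 CPM in rapamycin 2 against 38.0 in control 2, so that its log2 fold change of −1.42 had an SE of 1.37. *TGFBI*, a TGF-β-induced adhesion protein, had opposite log2 differences of −0.37 and 0.45.

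In the basement membrane group, 1 of 9 genes rose (*LAMB3*) and none fell, where 4.65% and 3.5% of all genes tested were called higher and lower. The genes for the type IV collagen chains α1 and α2 did not pass. *COL4A1* was at 115, 36.0, 108 and 33.5 CPM in rapamycin 1, rapamycin 2, control 1 and control 2 (log2 fold change 0.10 ± 0.26). *COL4A2* was at 400.3, 69.6, 356 and 52.2 CPM in the same order (0.29 ± 0.25). *COL7A1*, the collagen of anchoring fibrils, and *LAMB1*, the β1 laminin chain, had opposite signs in the pairs. Their log2 differences were 0.55 and −0.78 for *COL7A1* and −0.50 and 0.996 for *LAMB1*. *COL17A1*, the transmembrane collagen of hemidesmosomes, had a log2 fold change of −0.50 ± 0.27 (adjusted p = 0.26, edgeR's quasi-likelihood test). *LAMA5* and *LAMC1* had log2 fold changes of 0.25 and 0.29. The crosslinking oxidases did not pass either, with *LOX* at 0.25 ± 0.53 and *LOXL2* at −0.04 ± 0.26.

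None of the EMT factors *ZEB1*, *ZEB2*, *SNAI1*, *SNAI2* and *TWIST1* passed the test with rapamycin. Their log2 fold changes lay between −0.30 (*ZEB1*) and 0.52 (*SNAI1*), with SE of 0.38 to 0.88. *ZEB1* and *ZEB2* were close to the limit of detection in number 2, with 2 and 4 counts for *ZEB1* and 0 and 4 for *ZEB2* in rapamycin 2 and control 2. The E-cadherin gene *CDH1* stood at 304 CPM in rapamycin 1, 221 in rapamycin 2, 334 in control 1 and 180 in control 2, with a log2 fold change of 0.08 ± 0.26. *VIM*, which encodes vimentin, had log2 differences of −0.50 and −0.44 in the pairs (adjusted p = 0.28, edgeR's quasi-likelihood test). N-cadherin (*CDH2*) and P-cadherin (*CDH3*) had opposite signs in the pairs. None of these 9 genes passed the test, and with 2 libraries a group this does not show that their levels were alike.

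Of the 8 metalloproteinase genes, 6 could be tested and none passed. The collagenase gene *MMP1* (log2 differences of −1.40 and −0.48), the stromelysin gene *MMP10* (−0.71 and −0.99) and the matrilysin gene *MMP7* (−1.19 and −1.35) were each lower in both pairs, with adjusted p-values of 0.19, 0.15 and 0.21 from edgeR's quasi-likelihood test. The number 1 difference rested on 3 and 6 counts in rapamycin 1 and control 1 for *MMP10*, and on 10 and 31 for *MMP1*. *MMP7* had 19 and 12 counts with rapamycin and 50 and 41 in control. The gelatinase gene *MMP2* and the membrane-bound *MMP14* had positive log2 differences in both pairs. *MMP2* was at 12.04 CPM in rapamycin 1, 12.5 in rapamycin 2, 11.3 in control 1 and 5.32 in control 2, so that both rapamycin libraries were above both controls. The gelatinase gene *MMP9* also had positive log2 differences, of 0.16 and 0.38, but with 4 counts in both number 2 libraries the latter reflects library size alone. *MMP14* was at 171 CPM in rapamycin 1, 904 in rapamycin 2, 151 in control 1 and 329 in control 2 (log2 fold change 0.82 ± 0.30, adjusted p = 0.10). The stromelysin gene *MMP3* had 0, 3, 0 and 30 counts in rapamycin 1, rapamycin 2, control 1 and control 2, and the collagenase gene *MMP13* had 9, 0, 10 and 2. Of the metalloproteinase inhibitors, *TIMP1* had log2 differences of 0.01 and −0.08, and *TIMP2* of 0.05 and 1.23.

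None of the 8 integrin genes passed. *ITGA2*, the α2 chain of a collagen receptor, came nearest, at 294 CPM in rapamycin 1, 112 in rapamycin 2, 97.7 in control 1 and 92.4 in control 2 (log2 fold change 0.93 ± 0.30, adjusted p = 0.067, edgeR's quasi-likelihood test). Both rapamycin libraries were above both controls, with a log2 difference of 1.59 in the number 1 pair and 0.27 in the number 2 pair. Without the filter on low counts *ITGA2* passed (adjusted p = 0.022, edgeR's quasi-likelihood test). *ITGA3*, the α3 chain of a laminin receptor, was at 1724 CPM in rapamycin 1, 781 in rapamycin 2, 1158 in control 1 and 650 in control 2, with log2 differences of 0.57 and 0.27 (adjusted p = 0.34). The other 6, the chains α5, α6, αV, β1, β4 and β6, had log2 fold changes of −0.20 (*ITGB6*) to 0.31 (*ITGB4*). *PDPN*, a mucin-like glycoprotein of the invasive tumour front, had a log2 fold change of 0.38 ± 0.45.

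Over the 47 genes, 17 were higher with rapamycin in both pairs and 10 were lower in both, against 37.0% and 31.7% of all genes tested (36.2% and 21.3% of the 47). Both rapamycin libraries were above both controls for 4 genes, *PLAU*, *COL1A1*, *MMP2* and *ITGA2*, and below both for 1, *MMP7*. Among all genes, 15.1% and 16.4% had such separation. The pairs had opposite signs and were each at least 0.58 (1.5-fold) in size for 2 genes, *ZEB2* and *LOX*, as were 3.41% of all genes.

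**Figure D2:**
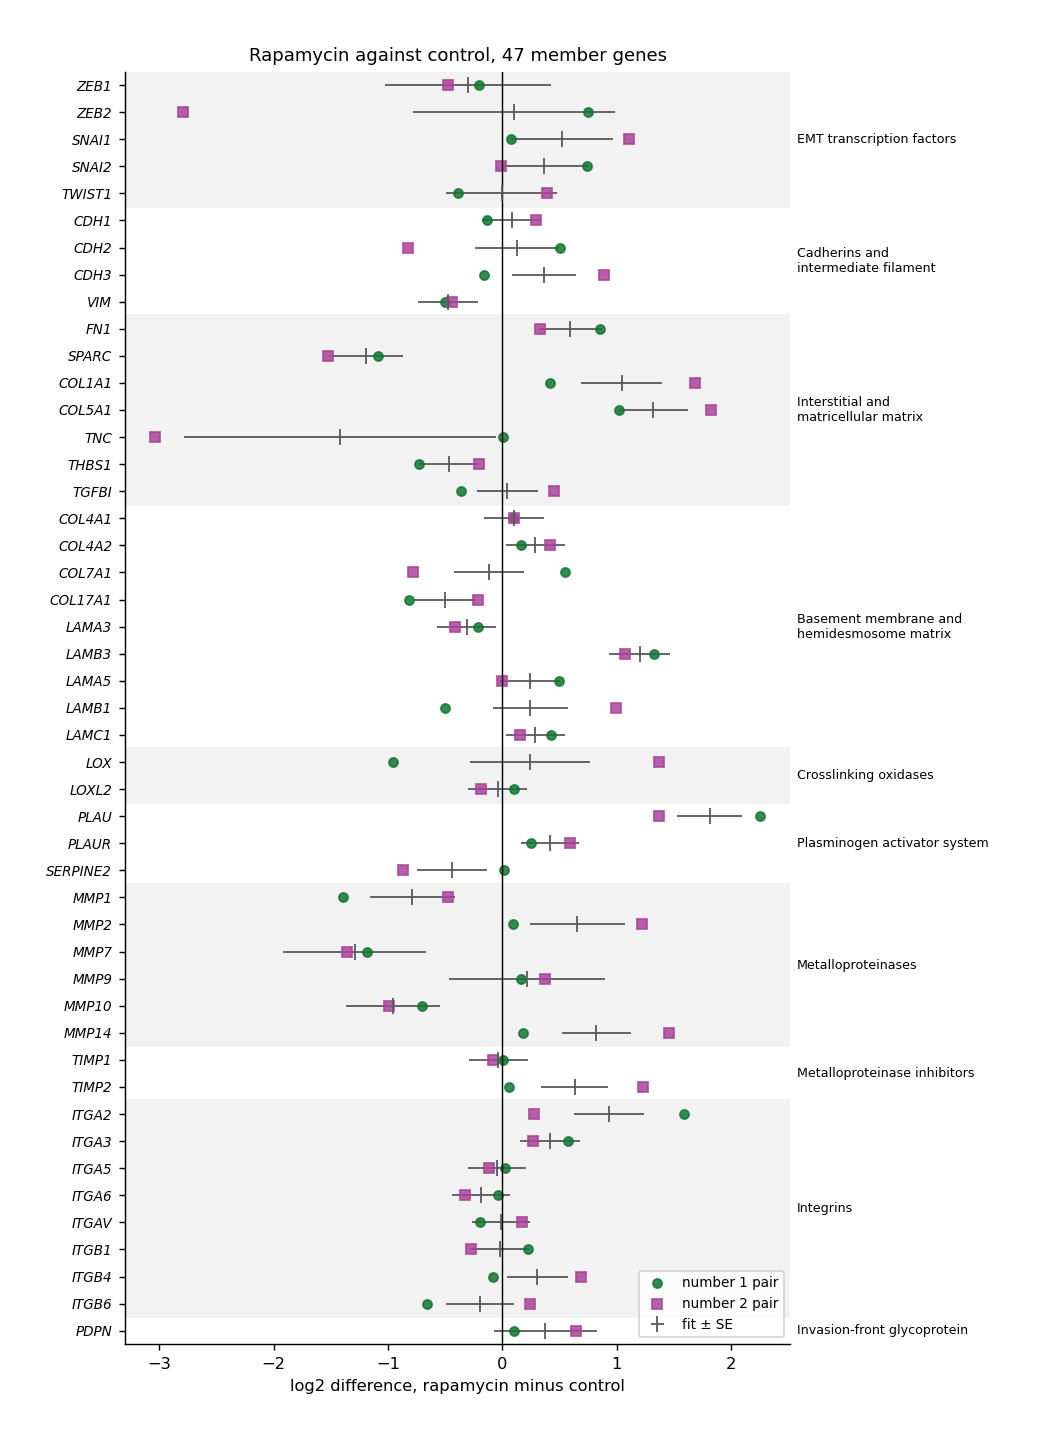
Rapamycin minus control as a log2 difference (x axis) for the 47 genes tested, ordered by role, with circles for the number 1 pair, squares for the number 2 pair, and a grey mark with a bar for the fitted log2 fold change ± SE. Most marks lie within 1 unit of 0, and the pairs of ZEB2 and LOX fall far apart on opposite sides.

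Many more of these genes differed by library number than with rapamycin. From the same fit, 23 of the 47 genes were higher in number 1 and 9 were lower, which is 68.1% called in either direction against 37.3% of all genes tested. The separate background shares were 20.2% called higher and 17.0% called lower, against 48.9% and 19.1% of these genes. At least 8-fold apart and called were 13 genes (27.7%), against 11.8% of all genes. The median size of the log2 difference was 1.68 for the 47 genes and 0.67 for all genes. These medians are a description, since they include genes that passed the filter on low counts through 1 number only. Since the number coincides with a cell line in the MeRIP-seq labels but not in the RNA-seq labels, cell line, batch and number cannot be told apart here. The genes *ZEB1*, *ZEB2*, *MMP9* and *MMP10* had fewer than 10 counts in both libraries of 1 number and passed the filter on low counts through the other number, so their difference by number is given as a description. Of all 15826 genes tested, 1738 passed in this way. Without such genes, 28 of 43 were called by number (65.1%, against 30.8% of all other genes tested). At least 8-fold apart were 9 (20.9%, against 3.66%). Both counts still held *SPARC* and *CDH2*, which had fewer than 10 counts in rapamycin 2 and are also given as a description. A filter of 10 counts in every library left 41 of the genes.

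**Figure D3:**
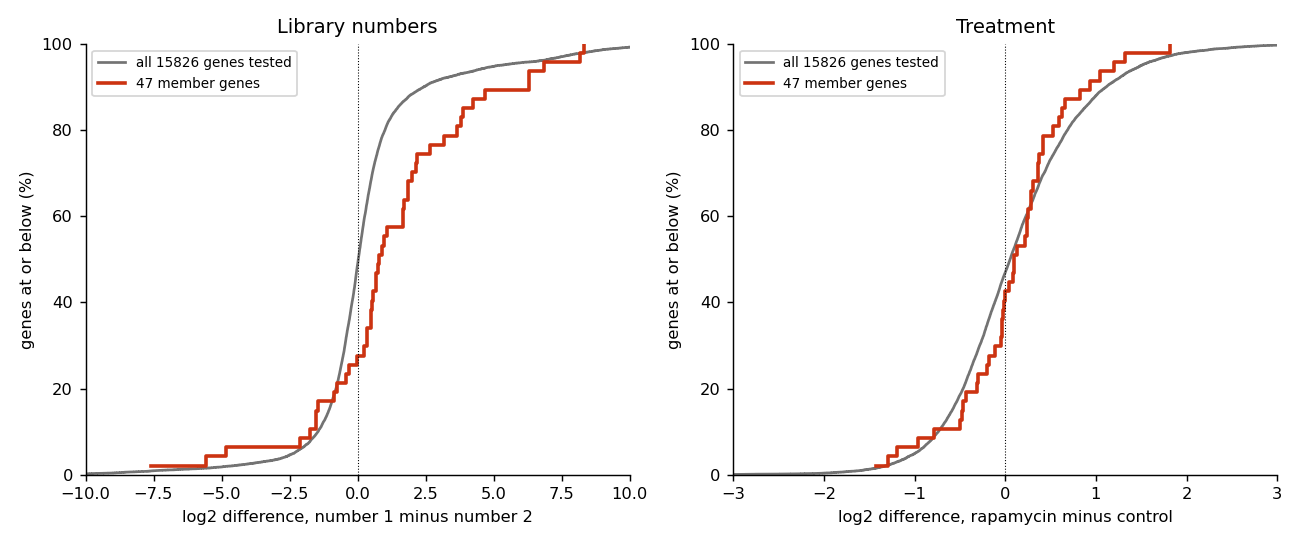
Cumulative share of genes (y axis, percent) at or below a given log2 difference (x axis), for the 47 genes in red and all 15826 genes tested in grey, for number 1 minus number 2 (left, cut at 10 units either side) and rapamycin minus control (right, cut at 3). The curves lie close together for rapamycin, with medians of 0.10 and 0.05, and part for the number, with medians of 0.78 and 0.03. The left panel is a description. It includes genes that passed the filter on low counts through 1 number only, 4 of the 47 and 1738 of all genes.

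The interstitial matrix held the highest values. *FN1* was 290-fold higher in number 1. *FN1* was at 14823 CPM in rapamycin 1 and 8205 in control 1, against 42.6 in rapamycin 2 and 33.9 in control 2, a log2 difference of 8.18 ± 0.37 (adjusted p = 1.0e-15, edgeR's quasi-likelihood test). *SPARC* was 317-fold higher (log2 difference 8.31 ± 0.38), with the CPM values already given. This *SPARC* difference is a description, since its number 2 level rested on 5 counts in rapamycin 2 and 20 in control 2. In rapamycin 1 and control 1 it had 2144 and 5183 counts. *COL5A1* was 79.8-fold higher in number 1 (log2 difference 6.32 ± 0.35). All of these genes had number 1 values above every number 2 value. *THBS1* was also higher in number 1, by 3.59-fold. *COL1A1* and *TGFBI* did not pass, and *TNC* had a log2 difference of 4.68 ± 1.47 that did not pass (adjusted p = 0.22) but did with DESeq2 (adjusted p = 1.6e-13) and with number as the only term in edgeR's quasi-likelihood test (adjusted p = 0.0092).

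Of the mesenchymal markers and EMT factors, *VIM* and *SNAI1* were also called higher in number 1. *VIM* was at 385 CPM in rapamycin 1, 4.94 in rapamycin 2, 544 in control 1 and 6.72 in control 2, which is 79.4-fold higher in number 1 (log2 difference 6.31 ± 0.32, adjusted p = 8.6e-15, edgeR's quasi-likelihood test). *CDH2* was at 87.3, 0.439, 61.7 and 0.803 CPM in the same order, from 1661, 8, 1336 and 19 counts. Its 114-fold higher level in number 1 (6.84 ± 0.42) is a description, since few counts lay behind the number 2 values. Among the factors, *SNAI1* was higher in number 1 (log2 difference 3.19 ± 0.47), at 16.0 CPM in rapamycin 1 and 15.2 in control 1 against 2.47 in rapamycin 2 and 1.14 in control 2. *ZEB1* was at 2.00 and 2.31 CPM in rapamycin 1 and control 1 and at 0.110 and 0.169 in rapamycin 2 and control 2. *ZEB2* was at 2.42 and 1.43 CPM in the number 1 libraries, and at 0 and 0.169 in number 2, where a count of 0 allows up to 0.165 CPM. Both *ZEB1* and *ZEB2* passed the filter on low counts through number 1 only, so their values are a description. *SNAI2*, *TWIST1* and the P-cadherin gene *CDH3* did not pass. The epithelial *CDH1* was not lower in number 1: it was 1.6-fold higher (log2 difference 0.67 ± 0.26, adjusted p = 0.040), a call that was lost with number as the only term (adjusted p = 0.21).

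The basement membrane genes split. *COL4A2* (6.27-fold), *LAMA3* (4.48-fold), *COL4A1* (3.21-fold), *LAMB3* (3.16-fold) and *COL7A1* (1.85-fold) were higher in number 1, and *COL17A1* (28.8-fold) and *LAMA5* (2.85-fold) were lower. For *COL7A1* the log2 difference by number was 0.23 in the control libraries and 1.56 in the rapamycin libraries. *COL17A1* was at 8.47 CPM in rapamycin 1 and 15.0 in control 1, against 302 in rapamycin 2 and 350 in control 2 (log2 difference −4.85 ± 0.31, adjusted p = 9.4e-13, edgeR's quasi-likelihood test). *LAMB1* and *LAMC1* did not pass (adjusted p = 0.080 and 0.22), and without the filter on low counts *LAMB1* did (adjusted p = 0.022). *LAMA5*, the α5 laminin chain, was at 426, 1023, 303 and 1023 CPM in rapamycin 1, rapamycin 2, control 1 and control 2. The call of *COL7A1* was lost with DESeq2 (adjusted p = 0.056) and with number as the only term (adjusted p = 0.18), and that of *LAMB3* with number as the only term (adjusted p = 0.064). Of the oxidases, *LOXL2* was 3.60-fold higher in number 1 and *LOX* 2.77-fold lower (log2 difference −1.47 ± 0.53, adjusted p = 0.046). *LOX* was at 4.63 CPM in rapamycin 1, 29.1 in rapamycin 2, 9.0 in control 1 and 11.2 in control 2. Its call was lost with DESeq2, with upper-quartile normalization, with a filter of 10 counts in every library and with number as the only term, at adjusted p-values from 0.054 to 0.10.

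Of the 6 metalloproteinase genes tested, *MMP9* and *MMP10* passed the filter through 1 number only, and their counts are a description. Of the other 4, *MMP1* and *MMP14* were lower in number 1, and *MMP2* and *MMP7* did not pass. *MMP9* had 55 and 56 counts in rapamycin 1 and control 1 and 4 and 4 in rapamycin 2 and control 2. *MMP10* had 3 and 6 counts in rapamycin 1 and control 1 and 531 and 1370 in rapamycin 2 and control 2. *MMP1* was 48.0-fold and *MMP14* 3.40-fold lower in number 1. *MMP1* was at 0.526 and 1.43 CPM in number 1 and at 37.6 and 52.4 in number 2 (log2 difference −5.59 ± 0.42, adjusted p = 2.1e-11, edgeR's quasi-likelihood test). Its number 1 values rested on 10 counts in rapamycin 1 and 31 in control 1. The inhibitors were both higher in number 1, *TIMP2* by 12.7-fold (352 and 339 CPM against 41.5 and 17.7) and *TIMP1* by 2.12-fold. In the urokinase system, *PLAUR* was 4.60-fold and *PLAU* 3.30-fold higher in number 1, and *SERPINE2* was 2.84-fold lower. *SERPINE2* was at 18.9, 39.6, 18.8 and 72.5 CPM in rapamycin 1, rapamycin 2, control 1 and control 2 (−1.51 ± 0.31, adjusted p = 0.00031). The *PLAU* call was lost with number as the only term (adjusted p = 0.099).

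Among integrins, *ITGA5*, the α5 chain of the fibronectin receptor, was 4.04-fold higher in number 1, at 188 and 185 CPM in rapamycin 1 and control 1 against 44.3 and 48.1 in rapamycin 2 and control 2. *ITGA3* was 1.98-fold higher. *ITGB6*, the partner of αV in an epithelial receptor that activates latent TGF-β, was 4.34-fold lower, at 12.9 and 20.4 CPM in rapamycin 1 and control 1 against 76.9 and 65.1 in rapamycin 2 and control 2 (log2 difference −2.12 ± 0.31, adjusted p = 3.9e-06, edgeR's quasi-likelihood test). *ITGB4*, the hemidesmosomal β4 chain, was 1.81-fold lower. The *ITGA3* and *ITGB4* calls were lost with number as the only term, with adjusted p-values of 0.11 and 0.14. *ITGA2*, *ITGA6*, *ITGAV* and *ITGB1* did not pass, nor did *PDPN*, and without the filter on low counts *ITGA2* did (adjusted p = 0.032).

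**Figure D4:**
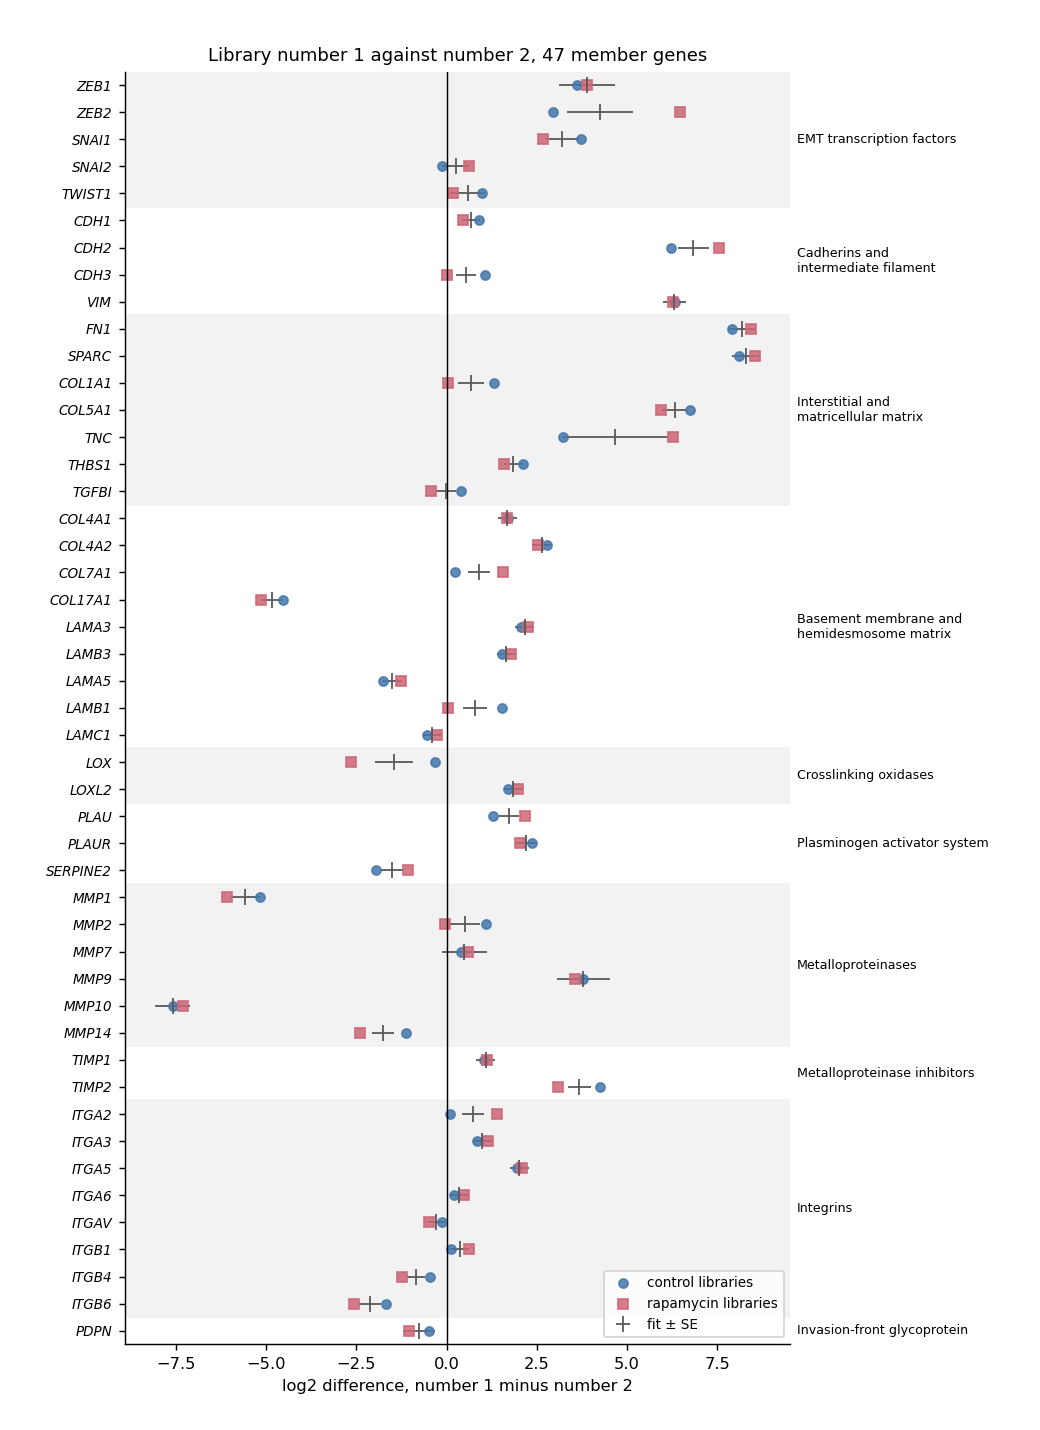
Number 1 minus number 2 as a log2 difference (x axis) for the 47 genes tested, ordered by role, with circles for the control libraries, squares for the rapamycin libraries, and a grey mark with a bar for the fitted value ± SE. SPARC, FN1, CDH2, COL5A1 and VIM lie beyond 5 units on the number 1 side, and MMP10 and MMP1 beyond 5 units on the number 2 side, in both treatments.

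RefSeq promoter sequences (GRCh38.p14, 250 bases before to 50 bases after a transcription start) were at hand for 34 of the 49 genes. They were searched for the core motif of AP-1, the FOS and JUN dimer known to bind upstream of protease and laminin genes. The motif was TGAGTCA or its reverse complement TGACTCA, which are the same site read on either strand. It was present in 5 of the 34 genes (14.7%), against 6.05% of the 27305 genes in the table and 4.95% of the 35116 promoters. These windows show where the match lies in each of the 5 genes, with the match in capitals, as read on the gene's own strand.
LAMB3, chr1:209651425-209651451, minus strand: tcagccactcTGACTCAttcactttgg
LAMA3, chr18:23872885-23872911, plus strand: tggcacaggcTGACTCAtgtgtgaagt
LAMA3, chr18:23872941-23872967, plus strand: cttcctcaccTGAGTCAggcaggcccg
PLAUR, chr19:43670339-43670365, minus strand: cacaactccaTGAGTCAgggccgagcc
MMP7, chr11:102530798-102530824, minus strand: aacactcaaaTGAGTCAcctatttcca
ITGA5, chr12:54419256-54419282, minus strand: ctccccgcgtTGAGTCAttcgcctctg

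The matches began 67 bases before the start in *LAMB3* and *MMP7*, 125 and 69 in *LAMA3*, 186 in *PLAUR* and 6 in *ITGA5*. Of these genes, *LAMB3* rose with rapamycin, and *LAMA3*, *PLAUR*, *MMP7* and *ITGA5* did not pass. With number, *LAMB3*, *LAMA3*, *PLAUR* and *ITGA5* were higher in number 1, and *MMP7* did not pass. A match describes the letters in this window only.

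The m6A lists held 3930 peaks in HSC3 control, 3952 in HSC3 rapamycin, 3625 in CAL33 control and 3079 in CAL33 rapamycin, of which 23, 26, 27 and 27 lay on the listed genes. The genes with a peak numbered 14, 19, 17 and 15 of 49, or 28.6%, 38.8%, 34.7% and 30.6%. Among all 15826 genes tested in RNA-seq, 17.6%, 17.5%, 16.1% and 14.2% had a peak in these lists. At least 1 list had a peak on 30 of the 49 genes (61.2%), against 35.4% of all genes tested. Each list came from 1 IP and 1 input library, so no difference between lists could be tested. Each peak carries the authors' fold enrichment of IP over input. Depth behind it is unknown, and between 55.7% and 61.7% of the peaks in a list shared their fold enrichment and p-value exactly with a peak on another gene, including 9, 12, 18 and 17 of the listed genes' peaks in HSC3 control, HSC3 rapamycin, CAL33 control and CAL33 rapamycin. What gave rise to these repeated values was not tested.

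*COL1A1*, *THBS1*, *MMP2* and *ITGA3* had a peak in all 4 lists (8.16% of the 49 genes, against 3.61% of all genes tested). *ITGA3* had a peak at 1 place in every list, annotated as exon by the authors. In HSC3 control it spanned chr17:50089402-50090211 (hg38, plus strand), with a fold enrichment of 25.7. The overlapping peak in HSC3 rapamycin had a fold enrichment of 71.9. In CAL33 control, 2 peaks with 7.21 and 12.6 covered the region, and in CAL33 rapamycin a peak with 64.7 did. The rapamycin peak was thus the higher one in both lines, with no replicate to set it against. *THBS1* had an overlapping peak in its 3′ untranslated region (UTR) in all 4 lists, at chr15:39595576-39596055 (plus strand) in HSC3 control. There the fold enrichment was 28.0 in HSC3 control, 7.18 in HSC3 rapamycin and 17.5 in CAL33 control, and 51.8 and 37.0 in the 2 peaks of CAL33 rapamycin. The order of the treatments was opposite in the cell lines.

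*COL1A1* had 4 peaks in HSC3 control, 3 in HSC3 rapamycin, 5 in CAL33 control and 5 in CAL33 rapamycin, in coding sequence, at the start codon, in exons and in the 3′ UTR. The highest was in HSC3 rapamycin, in coding sequence at chr17:50186381-50186932 (minus strand), with a fold enrichment of 812. *MMP2* had 1 peak in each list, with a fold enrichment of 331 in HSC3 control, 306 in HSC3 rapamycin, 115 in CAL33 control and 193 in CAL33 rapamycin. It lay in coding sequence in HSC3 control and in the 3′ UTR in the other lists, and each of the 4 *MMP2* values was shared with a peak on another gene.

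*COL4A1* and *PLAU* had a peak in both rapamycin lists and in neither control list (4.08% of the genes, against 1.16% of all genes tested), and no gene had peaks in the 2 control lists alone (1.55% of all genes tested). The *PLAU* peaks were among the weakest of their lists. The HSC3 rapamycin peak lay in the 3′ UTR at chr10:73916633-73916782 (plus strand) with a fold enrichment of 2.56, and the CAL33 rapamycin peak in coding sequence at chr10:73913052-73913578 with 2.22, so the peaks did not overlap. *PLAU* mRNA was also higher with rapamycin, as given above, and the part of mRNA level in whether a peak was listed was not tested. *COL4A1* had 1 peak in coding sequence in HSC3 rapamycin, with a fold enrichment of 10.9, and peaks in coding sequence and the 3′ UTR in CAL33 rapamycin, with 378 and 56.3. None of them overlapped a *COL4A1* peak of another list. Each of the 3 *COL4A1* peaks shared its values with a peak on another gene, and the HSC3 peak had a log10 false discovery rate of −0.30. The pattern ended for *COL4A1* at a false discovery rate of at most 0.05 and for *PLAU* at a fold enrichment of at least 4, so that 1 gene was left under each. At that false discovery rate, *SNAI2* and *TIMP2* had peaks in the control lists alone, which made 1 gene for rapamycin and 2 for control. With equal numbers of top-ranked peaks per list it was 1 gene each, *PLAU* and *SNAI2*.

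The highest fold enrichments were 1270 for *COL4A2* (CAL33 control, 3′ UTR), 812 for *COL1A1* (HSC3 rapamycin), 732 for *SPARC* (CAL33 control, coding sequence), 729 for *TNC* (HSC3 rapamycin, coding sequence) and 702 for *FN1* (CAL33 control, exon). *COL4A2* had 3 peaks in CAL33 control and none in the other lists. *SPARC* had 3 peaks in HSC3 control, 1 in HSC3 rapamycin, 2 in CAL33 control and 0 in CAL33 rapamycin. *FN1* had 0, 1, 1 and 6 peaks in HSC3 control, HSC3 rapamycin, CAL33 control and CAL33 rapamycin. *TNC* had peaks in the 2 HSC3 lists only, with an overlapping peak of fold enrichment 61.3 in control and 729 in rapamycin, and *VIM* and *ITGB1* had peaks in the 2 CAL33 lists only. Peaks in a single list were also on *ZEB1* (84.8), *COL7A1* (19.1) and *LOXL2* (14.6 and 27.0) in HSC3 rapamycin, on *COL5A1* (77.7) and *TIMP1* (80.4) in CAL33 rapamycin, on *ZEB2* (11.2), *LAMC1* (9.35) and *ITGAV* (1.92) in HSC3 control, and on *CDH1* (157) and *PLAUR* (72.4) in CAL33 control, with the fold enrichment in parentheses. *SNAI2*, *CDH3*, *LOX*, *TIMP2*, *ITGA5* and *ITGA6* had peaks in 3 lists and *SERPINE2* and *MMP14* in 2, with fold enrichments from 3.35 (*CDH3*, CAL33 rapamycin) to 339 (*CDH3*, HSC3 control). The other 19 genes had no listed peak, among them *LAMB3*, *LAMA3*, *CDH2*, *COL17A1*, *ITGB4*, *SNAI1*, *MMP1* and *MMP10*.

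**Figure D5:**
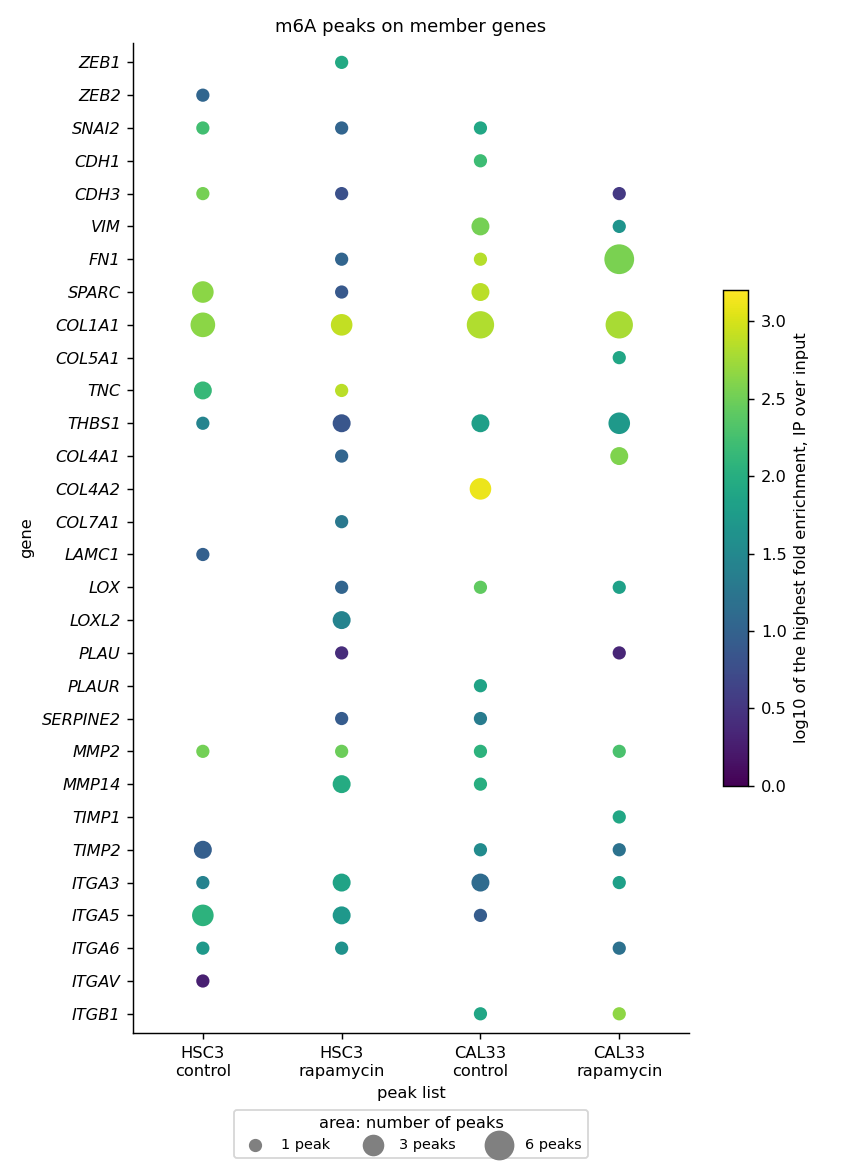
m6A peaks on the 30 genes that had any, by list (x axis), with the area of a point for the number of peaks (1 to 6) and its colour for the log10 of the highest fold enrichment of IP over input on that gene. COL1A1, THBS1, MMP2 and ITGA3 have a point in every list, COL4A1 and PLAU have points under both rapamycin lists and no control list, and 11 genes have a point in a single list.

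Rapamycin peaks on these genes overlapped a control peak of the same line by at least 1 base in 7 of 26 cases in HSC3 (26.9%, 95% Wilson interval 13.7% to 46.1%) and in 11 of 27 in CAL33 (40.7%, 24.5% to 59.3%). Over all peaks the shares were 28.4% (27.0% to 29.8%) and 29.9% (28.3% to 31.5%). The intervals cover counting error only, and both intervals of the listed genes held the share of all peaks.

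Of 74 further genes of the same pathways, 69 could be tested, and 4 rose with rapamycin and none fell (5.8% called, against 8.15% of all genes tested), with a median log2 fold change of 0.18. *HSPG2*, the basement membrane proteoglycan perlecan, was at 159, 553, 93.2 and 248 CPM in rapamycin 1, rapamycin 2, control 1 and control 2 (log2 fold change 0.96, adjusted p = 0.021, edgeR's quasi-likelihood test). *PLAT*, the tissue-type plasminogen activator, was at 25.1, 417, 18.1 and 110 CPM (1.22, adjusted p = 0.032). *CCN1*, a matricellular protein, was at 1470, 27.0, 386 and 18.1 CPM (1.27, adjusted p = 0.020). *SMAD3*, a transducer of TGF-β signals, was at 241, 420, 159 and 175 CPM (0.93, adjusted p = 0.029). Both plasminogen activator genes, *PLAU* and *PLAT*, thus rose with rapamycin, *PLAU* with its higher levels in number 1 and *PLAT* with its higher levels in number 2. By number, *ITGA4*, *ITGB3*, *LAMA4*, *LOXL3* and *MMP12* passed the filter on low counts through 1 number only. Of the other 64, 32 were called, 18 higher in number 1 and 14 lower, where 30.8% of all genes tested without such genes were called. The collagen VI genes *COL6A1* and *COL6A2* (7.27 and 6.43) and *TGFB1* (2.01) were higher, and the membrane protease gene *ST14* (−2.62), *ITGB8* (−2.43) and *PLAT* (−3.33) were lower. Within control and within rapamycin, the values were 8.36 and 6.37 for *COL6A1*, 7.31 and 5.71 for *COL6A2* and 2.57 and 1.45 for *TGFB1*. In the same order they were −2.63 and −2.61 for *ST14*, −1.28 and −3.72 for *ITGB8* and −2.60 and −4.05 for *PLAT*.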

How the data were processed

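RNA-seq was analysed from the deposited raw counts per Ensembl gene, whose table is named by the authors for HTSeq. The library kit was stranded, and the counting setting, aligner role and annotation are not given in the sources used here. The submitters' processing notes name hg38, cutadapt 2.5, HISAT2 2.1.0, featureCounts 1.6.3 and HOMER 4.10.4. The authors' peak lists give a fold enrichment (ratio of IP to input), a p-value, and log10 p and log10 false discovery rate columns, treated as a score. Peaks were called per cell line and treatment, and positions are 1-based.

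Of the 58302 identifiers, 57532 (98.7%) matched a symbol. Counts were filtered with filterByExpr, TMM-normalised and fitted with edgeR 4.0.16 (R 4.3.3; robust quasi-likelihood, two-sided, Benjamini-Hochberg over 15826 genes at 0.05) with treatment and number as terms. The number difference is the other coefficient of that fit. CPM uses TMM library sizes. The block was checked: number 1 minus number 2 in rapamycin correlated with that in control at r = 0.90 over genes, and the numbers come from the titles. An exact permutation test of 2 against 2 libraries cannot go below 0.33 and was not used. Leaving out a pair, or testing whether pairs differ, leaves no residual degrees of freedom and gives values only. Alternatives were DESeq2 1.42.0, upper-quartile scaling, no filter, at least 10 counts in every library, and single-term fits. Scripts were tested on simulated data. Mitochondrial genes took 5.71% to 7.94% of counts.

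The members and lists were chosen with earlier results of these data known. All members are named. Values in every library are given for members called with rapamycin, low-count members and the 8 with the largest number differences in each direction. Number differences are a description where a library had fewer than 10 counts. Library values are given for members with peaks in all lists, in both lists of one treatment only or with the 5 highest fold enrichments. Near misses were named after their values were seen.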

Additional observations from a re-analysis of the deposited data

Results flagged for a closer look

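The genes *ZEB2* and *LOX* had log2 differences of rapamycin from control that were opposite in sign in the numbered pairs and at least 0.58 (1.5-fold) in size in each. Among all genes tested, 3.41% met this. For *ZEB2* the log2 difference was 0.75 in number 1 and −2.79 in number 2, the latter from 0 counts in rapamycin 2 and 4 in control 2. For *LOX* it was −0.96 in number 1, from 88 and 195 counts, and 1.37 in number 2, from 530 and 266. With 1 library per treatment and number, neither difference between the numbers could be tested.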

How the results depend on the processing

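The 4 members called with rapamycin kept their direction under every alternative run and within each numbered pair, and their calls under DESeq2, upper-quartile scaling and no filter. *SPARC* could not be fitted under the filter of 10 counts in every library, which called 3 members. Without the replicate block, 0 genes and 0 members were called (446 genes and 0 members at an unadjusted p under 0.05), and each of the 4 had an adjusted p of 0.9997. DESeq2 called 818 genes. By number, 3057 genes were called with number as the only term and 3927 with the filter of 10 counts, against 5899. Upper-quartile scaling moved the median log2 fold change of all genes from 0.05 to 0.13, and the share of calls that were higher from 57.1% to 69.1%. Members that changed sign with rapamycin were not called in any fit. Without the block these were *COL7A1* (0.079), *LOXL2* (0.039), *ITGAV* (0.0088), *ITGB1* (0.0067) and *ITGB6* (0.071). Under DESeq2 they were *ZEB2* (−1.05), *TWIST1* (0.011) and *ITGAV* (0.0039). Under upper-quartile scaling they were *TWIST1* (0.069), *LOXL2* (0.034), *TIMP1* (0.039), *ITGA5* (0.029), *ITGAV* (0.065) and *ITGB1* (0.051). With the filter of 10 counts they were *TWIST1* (0.019), *ITGAV* (0.016) and *ITGB1* (0.0017). By number, *TGFBI* changed sign under DESeq2 (0.0094), upper-quartile scaling (0.046) and the filter (0.028). Causes were not tested. Of the members with a peak in both rapamycin lists and no control list, 1 was left at a false discovery rate of at most 0.05 (*PLAU*), 1 at a fold enrichment of at least 4 (*COL4A1*) and 1 with equal numbers of top-ranked peaks (*PLAU*), against 2. Peaks in both control lists alone were on 0 members, on 2 at that false discovery rate (*SNAI2*, *TIMP2*) and on 1 with equal numbers of peaks (*SNAI2*). *COL1A1*, *THBS1*, *MMP2* and *ITGA3* had a peak in all 4 lists under each. The number of members with a peak in a list stayed within 1.5 times its value, at 11 to 18.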
